A study of Mus musculus with 10 samples.

Results

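The genes described are the collagens and the enzymes and chaperone that process them, in mouse libraries of input RNA and of ribosome footprints (the mRNA fragments that ribosomes protect from nuclease). Members were chosen by symbol: every gene named Col, a number, a and a number, plus P4ha1 to P4ha3, Plod1 to Plod3, Lox, Loxl1 to Loxl4, Serpinh1, Bmp1 and Pcolce. The rule found 58 members, 44 collagen chain genes and 14 processing genes, among 21934 symbols. Of these, 25 (13 collagens and 12 processing genes) had a mean of at least 5 TPM in input and in footprints of both deposited tables, as did 6927 genes in all. TPM is transcript abundance per unit of length, scaled to a fixed library total.

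One table held 3 lines of an immortalized bone marrow-derived macrophage culture (iBMDM), described as monoclonal. They are labelled WT, sgWdr4-1 and sgWdr4-2, the last 2 infected with lentivirus carrying a guide RNA against Wdr4 and selected with puromycin; whether WT received a virus was not stated. The other table held tumour-associated macrophages (TAM) sorted for the surface protein F4/80 from orthotopic Hepa1-6 hepatoma tumours in Wdr4ff mice and in myeloid-specific Wdr4cKO mice. The Cre driver, the animals' ages and how many animals gave each sample were not stated, and the tumour cells of both genotypes were Hepa1-6 cells that the host's deletion does not touch. Wdr4 and the enzyme Mettl1 together methylate tRNA at guanosine, and the question was how loss of Wdr4 alters translation. Each of these 5 lines had 1 input and 1 footprint library, so single differences have no replicate check.

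Collagens are triple helices of chains built from repeated glycine-led triplets. In the endoplasmic reticulum prolyl 4-hydroxylases (P4ha) and lysyl hydroxylases (Plod) modify the chains and the chaperone Serpinh1 (HSP47) holds the helix. Outside the cell, Bmp1 with its enhancer Pcolce removes propeptides of fibrillar procollagens, and Lox family oxidases start the cross-links that make the matrix stiff. Fibroblasts and stellate cells are the main source of fibrillar collagen in liver, and macrophages are better known for degrading it and for signalling to those cells.

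Some libraries stood apart or did not follow their labels. The sgWdr4-1 footprint library held 0.781% of its TPM in mitochondrially encoded genes against 9.94 to 14.6% in the other footprint libraries. Wdr4 itself had input of 44.6 (WT), 31.3 (sgWdr4-1), 44.5 (sgWdr4-2), 39.8 (Wdr4ff) and 20.9 TPM (Wdr4cKO). Its footprints were 13.3, 24.3, 26.9, 8.51 and 17.7 TPM in the same order, higher in each targeted library than in its control, so line names in what follows are those of the labels. The labelled cell type was not seen in its markers: 17 of 21 macrophage markers were under 1 TPM in every input library, with Adgre1 (the F4/80 gene), Aif1 and Marco at 0 in each. Cd14 and Lgals3 alone reached 5 TPM in each, and the list summed to 526 to 688 TPM. Of 15 fibroblast and stellate markers other than collagens, 7 were at least 5 TPM in every input library (Pdgfrb, Acta2, Tagln, Postn, Fn1, Vim and S100a4). The other 8 (Pdgfra, Dcn, Lum, Thy1, Des, Rgs5, Lrat and Reln) were under 1 TPM in each. The summed input of the 15 was 7443 TPM in WT, 8405 in sgWdr4-1, 7494 in sgWdr4-2, 7566 in Wdr4ff and 9996 in Wdr4cKO. Acta2 alone had 2397, 2834, 2462, 2483 and 3785 TPM in that order. Of 12 hepatocyte and hepatoma markers 9, and of 7 endothelial markers 6, were under 1 TPM in every input library. In the hepatocyte and hepatoma list Apoa1 and Apoa2 were at least 5 TPM in each. That list summed to between 99.8 TPM (Wdr4ff) and 169 TPM (Wdr4cKO).

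Promoter sequence is shown for a type I chain, for the member with the lowest fitted difference in translation efficiency between targeted and control lines, and for the chaperone, since the input RNA described next starts there. The bases are those before the annotated start, 5′ to 3′ on the gene's strand, from RefSeq (GRCm38.p6); capitals mark CCAAT and the GC box GGGCGG on either strand (CCGCCC on the other). Col1a2 lies at chr6:4505368-4505617 on the plus strand (250 bases, 1 CCAAT and 2 GC boxes), Col5a1 at chr2:27886175-27886380 on the plus strand (206 bases, 2 GC boxes) and Serpinh1 at chr7:99353240-99353489 on the minus strand (250 bases, 1 GC box).
Col1a2: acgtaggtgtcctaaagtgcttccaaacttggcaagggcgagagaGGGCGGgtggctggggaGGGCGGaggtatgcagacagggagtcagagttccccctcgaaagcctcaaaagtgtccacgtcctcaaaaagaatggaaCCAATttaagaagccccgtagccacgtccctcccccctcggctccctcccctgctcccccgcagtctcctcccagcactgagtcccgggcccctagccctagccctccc
Col5a1: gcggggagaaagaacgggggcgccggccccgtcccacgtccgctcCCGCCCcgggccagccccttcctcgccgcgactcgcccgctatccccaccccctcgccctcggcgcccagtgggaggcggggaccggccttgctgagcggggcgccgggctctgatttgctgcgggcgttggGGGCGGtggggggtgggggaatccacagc
Serpinh1: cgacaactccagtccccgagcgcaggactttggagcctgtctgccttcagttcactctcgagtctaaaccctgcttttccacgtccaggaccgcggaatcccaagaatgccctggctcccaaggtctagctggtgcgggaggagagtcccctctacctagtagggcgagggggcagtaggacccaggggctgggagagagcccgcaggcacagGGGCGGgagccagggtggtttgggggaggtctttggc
Of the 25 measured members, 17 had a promoter window of 300 bases in the table. A GC box was found in 14 of these 17 and in 35.7% of all 32851 windows, CCAAT in 6 of 17 and 37.4%, and TATAAA in 2 of 17 (P4ha1 and Plod1) and 13.6%. The members had passed the TPM filter and were counted per gene. The percentages are per window with no such filter, so the 2 are not like sets. Col4a1 and Col4a2, the paired chains of type IV collagen, start head to head on chromosome 8. Col4a2 begins at base 11312805 on the plus strand and Col4a1 at base 11312826 on the minus strand, so their first 22 bases overlap.

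The input RNA of all 5 lines held the same set of collagens. Most abundant were the fibrillar chains Col5a2 (628 to 679 TPM), Col1a2 (589 to 712 TPM) and Col1a1 (425 to 595 TPM), and the chaperone Serpinh1 (1054 to 1298 TPM). Next came the processing genes Pcolce (228 to 255 TPM), P4ha1 (177 to 301 TPM) and Lox (167 to 358 TPM). The network-forming Col8a1 (81.3 to 108 TPM), the fibril nucleator Col5a1 (52.9 to 105 TPM), the beaded-filament chain Col6a3 (46.8 to 120 TPM) and the basement membrane chain Col4a1 (35.6 to 74.9 TPM) were lower. The 58 members made up 0.422 to 0.55% of the TPM in input libraries and 0.457 to 0.852% in footprint libraries.

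**Figure D1:**
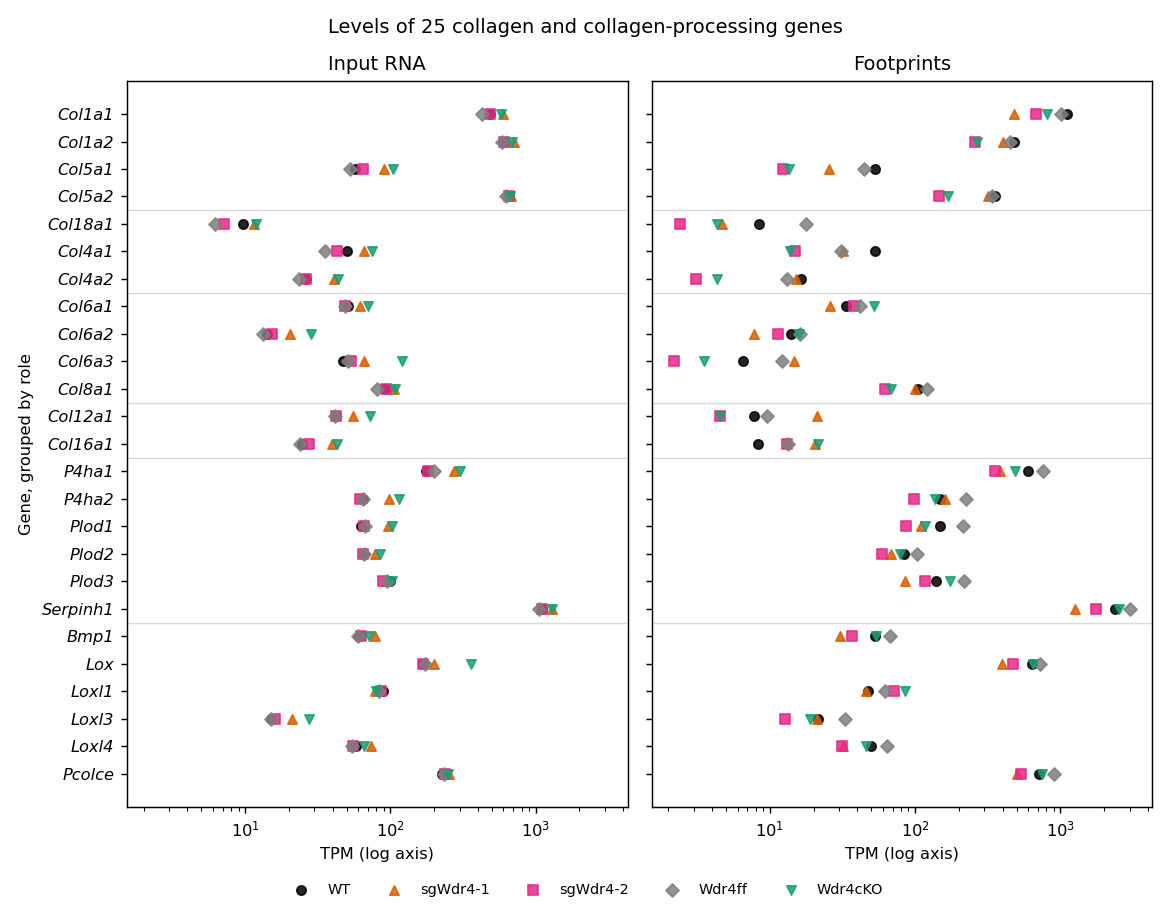
TPM on a log axis of the 25 measured members in 5 input libraries (left) and 5 footprint libraries (right), 1 symbol per line and grey rules between roles. Input symbols lie close together for most genes, while footprints of Col5a1, Col4a1, Col4a2, Col18a1 and Col6a3 spread widely, with sgWdr4-2 and Wdr4cKO at the low end.

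Of the 33 members that did not pass the 5 TPM filter, 24 stayed under 1 TPM in all 10 libraries, and Col24a1, Col26a1 and Col28a1 were listed at 0 throughout. The cartilage collagens Col2a1, Col9a1 to Col9a3, Col10a1 and Col11a1 were among the 24. Col11a2, Col20a1, Col4a3, Col7a1, Loxl2 and P4ha3 reached between 1.06 and 5.09 TPM in at least 1 library. Col3a1, the type III fibrillar chain usually made beside type I, was low: its input was 7.51 TPM in WT, 9.96 in sgWdr4-1, 9.45 in sgWdr4-2, 8.25 in Wdr4ff and 9.0 in Wdr4cKO. Its footprints were 6.41, 4.39, 6.05, 4.43 and 5.25 TPM in that order, so the chain was present at a small part of the Col1a1 level in every line. Footprints of targeted and control lines overlapped. Input was higher in each targeted line than in its control, as for 26.5% of the 6927 measured genes.

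Translation efficiency, log2(footprint TPM + 1) minus log2(input TPM + 1) within a line, had a lower median over the collagens than over their processing genes in all 5 lines, with overlapping values and no test of the difference. The median over the 13 collagens was -0.32 in WT, -1.14 in sgWdr4-1, -1.25 in sgWdr4-2, -0.24 in Wdr4ff and -1.36 in Wdr4cKO. Over the 12 processing genes it was 0.80, -0.03, 0.40, 1.35 and 0.23 in that order, and over all 6927 genes -0.53, -0.41, -0.56, -0.60 and -0.86. Comparing genes in this way depends on the length by which each footprint value was divided, which is not given in the sources used here.

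**Figure D2:**
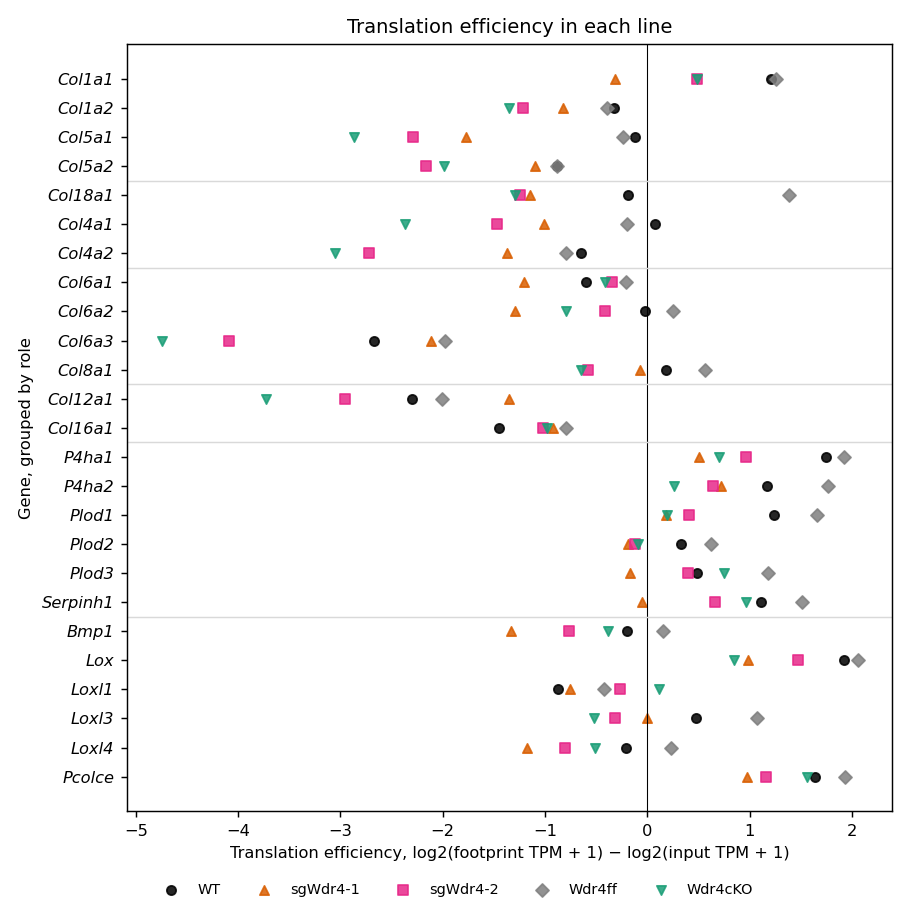
Translation efficiency (log2 scale) of the 25 measured members in each of 5 lines, 1 symbol per line. Col6a3 and Col12a1 lie farthest left, Lox, Pcolce and P4ha1 farthest right, and the symbols of WT and Wdr4ff are to the right of those of the targeted lines for most genes.

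Against 0, with the 5 lines as the repeats (limma, Benjamini-Hochberg adjusted over 6927 genes), footprints were lower than input for 9 of 25 members, all of them collagens, against 52.3% of all genes. They were higher for 8 of 25, Col1a1 and 7 processing genes, against 15.7% of all genes. The lines are not replicates of one condition, so the spread includes any effect of targeting. Lowest was Col6a3 at -3.12 (SE 0.37, adjusted p = 2.12e-05), a chain of the type VI microfibril, then Col12a1 at -2.47 (SE 0.31, adjusted p = 2.67e-05), a collagen on the surface of fibrils. Highest were Lox at 1.46 (SE 0.22, adjusted p = 9.67e-05) and Pcolce at 1.45 (SE 0.19, adjusted p = 4.37e-05). Col1a1 was the collagen with footprints above input, at 0.62 (SE 0.24, adjusted p = 0.0337), and its partner Col1a2 stood at -0.82 (SE 0.21, adjusted p = 0.0036). The zero point is set by the scaling: with every library rescaled to the same median, 4 members instead of 9 were called lower (Col12a1, Col4a2, Col5a2 and Col6a3 kept their calls) and the median of all genes moved from -0.60 to 0.15. The Col1a1 call was lost on leaving out WT, sgWdr4-2, Wdr4ff or Wdr4cKO, and the Col4a1 call on leaving out sgWdr4-2 or Wdr4cKO. Calls of Col6a1 (without WT, sgWdr4-1 or sgWdr4-2), Plod1 (without WT or Wdr4ff) and Plod3 (without any line other than sgWdr4-1) were lost likewise.

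Between targeted and control lines, the translation efficiency of most members was lower in the targeted line. It was below that of the control in all 3 comparisons for 20 of 25 members (25.2% of all genes), 9 of 13 collagens and 11 of 12 processing genes. At least 2-fold lower were 8 of 25 in sgWdr4-1 (14.2% of all genes), 6 of 25 in sgWdr4-2 (4.46%) and 14 of 25 in Wdr4cKO against Wdr4ff (15.5%). None was at least 2-fold higher, against 13.9%, 3.58% and 3.96% of all genes. Translation efficiency falls with higher input as well as with fewer footprints. In footprints alone 2, 6 and 6 of 25 were at least 2-fold lower (10.6%, 4.24% and 7.77% of all genes), all of them collagens. In Wdr4cKO, Col6a2 and Lox differed by 1.03 and 1.05 in input and by -0.01 and -0.16 in footprints. The filter uses the mean of a table, so a member can pass through a high control. In TAM footprints Col12a1, Col18a1, Col4a2 and Col6a3 passed through Wdr4ff, with Wdr4cKO under 5 TPM. In iBMDM footprints Col18a1 passed through WT (8.35 TPM against 4.66 and 2.42). Members that pass in this way could be counted only as lower in footprints. Median differences in translation efficiency were -0.66, -0.66 and -1.10 for the members against -0.02, -0.03 and -0.25 for all genes. Both guide comparisons share the WT libraries, so a high WT footprint value enters each of them. The Wdr4cKO translation efficiency count was 9 when libraries were rescaled to the same median. It was 2 when the Wdr4ff and Wdr4cKO footprint libraries were exchanged, which reverses the sign of every TAM footprint difference. In these bulk samples fewer cells of a type and less RNA per cell cannot be told apart, and the part played by the fibroblast marker level, which was also highest in Wdr4cKO, was not tested.

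**Figure D3:**
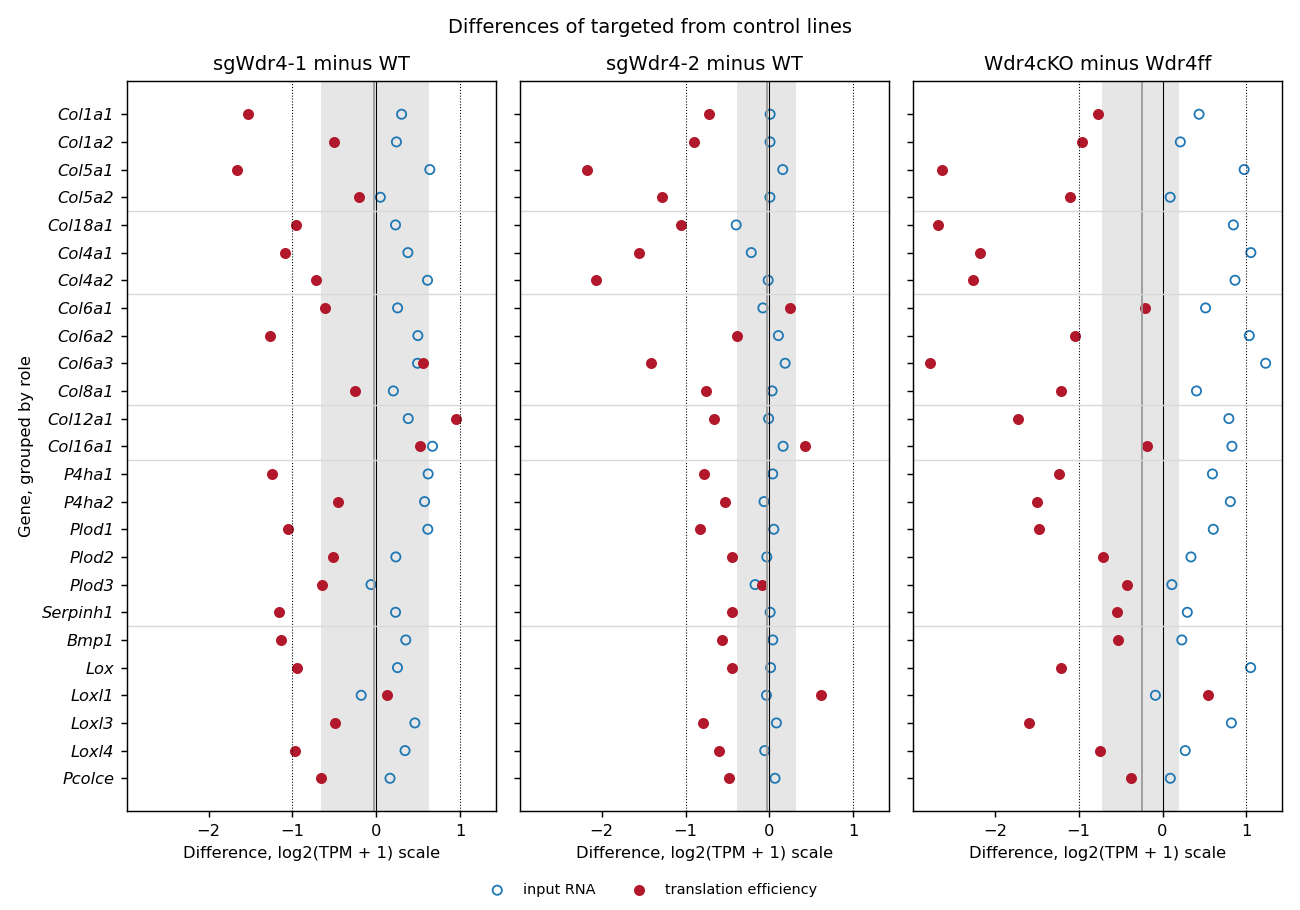
Difference of each targeted line from its control for the 25 measured members, on the log2(TPM + 1) scale, for input RNA (open circles) and translation efficiency (filled). The grey band is the interquartile range of translation efficiency differences over all 6927 genes with its median as a grey line, and dotted lines mark 2-fold; filled points lie mostly left of the band in Wdr4cKO and open points mostly right of 0 in sgWdr4-1 and Wdr4cKO.

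The fibrillar chain Col5a1, which nucleates type I fibrils, had the lowest fitted value. Its input was 57.4 TPM in WT, 90.0 in sgWdr4-1, 64.3 in sgWdr4-2, 52.9 in Wdr4ff and 105 in Wdr4cKO. Its footprints were 52.9, 25.6, 12.3, 44.5 and 13.5 TPM in that order. Each targeted library was above its control in input and below it in footprints. Footprints were 48.4%, 23.3% and 30.2% of control, and translation efficiency differed by -1.66, -2.18 and -2.63. Col5a1 and Col4a1 were the 2 of 25 members at least 2-fold lower in all 3 comparisons, against 1.1% of all genes, and none was with the TAM footprint libraries exchanged.

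Type I collagen is made of Col1a1 and Col1a2 chains. Col1a1 input was 482 TPM in WT, 595 in sgWdr4-1, 485 in sgWdr4-2, 425 in Wdr4ff and 575 in Wdr4cKO, and its footprints were 1116, 476, 680, 1018 and 805 TPM. Col1a2 input was 603, 712, 606, 589 and 682 TPM in that order, and its footprints were 482, 401, 260, 448 and 266 TPM. For both chains footprints were lower in each targeted library than in its control, while input in sgWdr4-2 was 101% of WT for each. The translation efficiency difference was largest in sgWdr4-1 for Col1a1 (-1.53, then -0.72 in sgWdr4-2 and -0.77 in Wdr4cKO) and in Wdr4cKO for Col1a2 (-0.50, -0.89 and -0.96). Col5a2, the partner of Col5a1, had nearly level input (628 to 679 TPM) and footprints of 355 TPM in WT, 317 in sgWdr4-1, 146 in sgWdr4-2, 339 in Wdr4ff and 167 in Wdr4cKO. Its differences were -0.21, -1.28 and -1.10, so its footprints were 89.4% of WT in sgWdr4-1, 41.2% in sgWdr4-2 and 49.4% of Wdr4ff in Wdr4cKO.

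In each of the 3 measured basement membrane collagens the translation efficiency difference was smallest in sgWdr4-1 and largest in Wdr4cKO. Col4a1 input was 50.3 TPM in WT, 65.6 in sgWdr4-1, 43.1 in sgWdr4-2, 35.6 in Wdr4ff and 74.9 in Wdr4cKO. Its footprints were 53.1, 31.9, 14.9, 30.9 and 13.7 TPM, so the sgWdr4-1 value was above that of Wdr4ff and the groups overlapped across the separately normalised tables. The differences in translation efficiency were -1.09, -1.55 and -2.17. Col4a2 footprints were 16.4 TPM in WT, 15.1 in sgWdr4-1, 3.11 in sgWdr4-2, 13.1 in Wdr4ff and 4.35 in Wdr4cKO, with differences of -0.72, -2.07 and -2.26. Col18a1, the source of the fragment endostatin, was low in input (6.21 to 12.0 TPM) and differed by -0.95, -1.06 and -2.67. Its footprints in Wdr4ff, 17.8 TPM, were above those of any other line, the next being WT at 8.35 TPM.

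Among the network and beaded collagens the chains of type VI differed from each other. Col6a3 footprints were 6.49 TPM in WT, 14.6 in sgWdr4-1, 2.20 in sgWdr4-2, 12.2 in Wdr4ff and 3.52 in Wdr4cKO, and its translation efficiency differed by 0.56, -1.41 and -2.77. Col6a1 footprints were 33.6, 26, 37.9, 42.0 and 52.2 TPM in the same order, with differences of -0.61, 0.25 and -0.21. Col6a2 differed by -1.27, -0.39 and -1.05. The type VIII chain Col8a1 differed by -0.25, -0.76 and -1.22.

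Col12a1 and Col16a1, fibril-associated collagens, had higher translation efficiency in sgWdr4-1 than in WT. Col12a1 footprints were 7.82 TPM in WT, 21.1 in sgWdr4-1, 4.56 in sgWdr4-2, 9.53 in Wdr4ff and 4.51 in Wdr4cKO, with translation efficiency differences of 0.95, -0.66 and -1.73. The sgWdr4-1 value was the highest of the 5, and it came from the footprint library low in mitochondrially encoded genes. Col16a1 footprints were higher in each targeted library than in its control (8.35, 20.4, 13.1, 13.3 and 21.3 TPM), and its differences were 0.53, 0.43 and -0.19.

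In footprints alone, at least 2-fold lower members were collagens in every comparison. They numbered 2 of 25 in sgWdr4-1 (Col1a1 and Col5a1, 10.6% of all genes), 6 of 25 in sgWdr4-2 (4.24%) and 6 of 25 in Wdr4cKO (7.77%). In sgWdr4-2 they were Col18a1, Col4a1, Col4a2, Col5a1, Col5a2 and Col6a3, and in Wdr4cKO again these 6, in comparisons that share no library. The share of all genes lower in both was not counted, and whether that overlap exceeds chance was not tested. Footprints of Col18a1, Col4a2 and Col6a3 were under 5 TPM in both targeted libraries. A filter of 20 TPM left 3 members in each of these comparisons.

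For the 6 intracellular processing genes the median translation efficiency difference was -0.85 in sgWdr4-1, -0.49 in sgWdr4-2 and -0.97 in Wdr4cKO, and for the 4 fibrillar chains -1.02, -1.09 and -1.03. Serpinh1 input was 1107 TPM in WT, 1298 in sgWdr4-1, 1114 in sgWdr4-2, 1054 in Wdr4ff and 1294 in Wdr4cKO, and its footprints were 2389, 1253, 1764, 3003 and 2529 TPM. Its footprint values were 52.5%, 73.8% and 84.2% of control, with Wdr4cKO still above WT, and translation efficiency differed by -1.16, -0.45 and -0.54. P4ha1, a catalytic subunit of prolyl 4-hydroxylase, had footprints of 597 TPM in WT, 386 in sgWdr4-1, 356 in sgWdr4-2, 759 in Wdr4ff and 489 in Wdr4cKO and differences of -1.24, -0.78 and -1.23. P4ha2 differed by -0.46, -0.53 and -1.50. Among the lysyl hydroxylases, Plod1 differed by -1.05, -0.83 and -1.47, Plod2, which hydroxylates telopeptide lysines, by -0.52, -0.45 and -0.71, and Plod3 by -0.65, -0.08 and -0.43. Thus Plod1 was the lowest of the lysyl hydroxylases in all 3 comparisons.

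Among the extracellular genes, the oxidase Lox had input of 167 TPM in WT, 199 in sgWdr4-1, 168 in sgWdr4-2, 172 in Wdr4ff and 358 in Wdr4cKO. Its footprints were 635, 394, 470, 719 and 645 TPM, so the Wdr4cKO library combined the highest input with footprints at 89.7% of its control. Lox translation efficiency differed by -0.94, -0.45 and -1.21. Its relatives Loxl3 (-0.49, -0.79 and -1.59) and Loxl4 (-0.96, -0.60 and -0.75) were lower in each comparison. Loxl1, which works with elastin, was the member higher in all 3 (0.12, 0.61 and 0.54), on footprints of 47.7 TPM in WT, 45.9 in sgWdr4-1, 71.7 in sgWdr4-2, 62.3 in Wdr4ff and 85.8 in Wdr4cKO. The procollagen C-proteinase Bmp1 differed by -1.13, -0.56 and -0.53, and its enhancer Pcolce by -0.66, -0.48 and -0.37.

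Input RNA of the members was higher in some targeted lines. In Wdr4cKO 4 of 25 members were at least 2-fold higher than in Wdr4ff (Col4a1, Col6a2, Col6a3 and Lox, 1.2% of all genes). There were 0 of 25 in sgWdr4-1 (0.318% of all genes) and 0 of 25 in sgWdr4-2 (0.0289%). With libraries rescaled to the same median the Wdr4cKO count was 1. Input was above control in all 3 comparisons for 15 of 25 members, against 26.5% of all genes. The median input difference was 0.34 in sgWdr4-1, 0.01 in sgWdr4-2 and 0.60 in Wdr4cKO, against 0.07, 0.01 and 0.06 for all genes, so the sgWdr4-2 input was at the WT level. Summed fibroblast and stellate markers, of which 8 of 15 were under 1 TPM, ranked the lines likewise. They stood at 8405, 7494 and 9996 TPM against controls of 7443 and 7566 TPM. Acta2 made up 3785 of the 9996 TPM in Wdr4cKO and 2483 of the 7566 TPM in Wdr4ff. The part of these markers in the input differences was not tested.

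When the 3 targeted lines were fitted against the 2 controls with the table as a term (limma, 2 residual degrees of freedom), no gene of 6927 and no member had an adjusted p under 0.05 in input, footprints or translation efficiency (0.0% of all genes each), with or without the expression trend. At an unadjusted p under 0.05, 11 of 25 members were higher in input (7.12% of all genes), 3 of 25 lower in footprints (2.12%) and 11 of 25 lower in translation efficiency (4.97%), with 0 of 25 higher in translation efficiency (1.24%). The lowest adjusted p of a member was 0.526 in input, 1.00 in footprints and 0.780 in translation efficiency. Fitted differences in translation efficiency were lowest for Col5a1 (-2.22, SE 0.41), Col4a2 (-1.77, SE 0.54), Col18a1 (-1.72, SE 0.49) and Col4a1 (-1.69, SE 0.42), each with a limma adjusted p of 0.780. Of these, Col4a2 and Col18a1 passed the filter in TAM footprints through Wdr4ff, and Col18a1 in iBMDM footprints through WT. The median over members was -0.90 (collagens -0.92, processing genes -0.74), against -0.11 for all genes.

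Leaving out the sgWdr4-1 line, whose footprint library stood apart, changed these calls. That line was also the guide line with lower Wdr4 input than WT (31.3 against 44.6 TPM). The guide line kept, sgWdr4-2, had Wdr4 input of 44.5 TPM. Then 13 of 25 members were lower in translation efficiency (5.66% of all genes), 9 collagens and 4 processing genes (Lox, P4ha1, P4ha2 and Plod1), and 11 of 25 were lower in footprints (6.9%). Col5a1 differed by -2.40 (SE 0.30) with a limma adjusted p of 6.06e-05, its adjusted p over all 13 settings tried running from 6.06e-05 to 1.00. Both that fit and the one without sgWdr4-2 have 1 residual degree of freedom and take most or all of their spread from other genes. Leaving out sgWdr4-2 instead gave no member called in translation efficiency or footprints and 21 of 25 called higher in input (17.6% of all genes), all but Col5a2, Loxl1, Pcolce and Plod3. Which calls are made therefore rests on which guide line is kept, and the cause was not tested. Footprints of sgWdr4-2 and Wdr4cKO were lower for the 6 collagens named above. Of these, Col18a1, Col4a2 and Col6a3 passed the filter in TAM footprints through Wdr4ff, so they could be counted there only as lower. They are also among the 13 and the 11. Input of sgWdr4-1 and Wdr4cKO was higher for most members.

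Chains of one collagen are assembled in fixed proportion, and TPM ratios were taken for 5 pairs of chains. For 3 pairs the footprint ratios spanned a wider range than the input ratios, and for 2 they did not. Col1a1 to Col1a2 was 0.722 to 0.843 in input over the 5 lines. In footprints it was 2.32 in WT, 1.19 in sgWdr4-1, 2.61 in sgWdr4-2, 2.27 in Wdr4ff and 3.03 in Wdr4cKO, so the guide lines lay on either side of WT. Col4a1 to Col4a2 was 1.52 to 1.91 in input and 3.24, 2.11, 4.79, 2.36 and 3.14 in footprints. Col6a1 to Col6a3 was 1.10, 0.927, 0.909, 0.962 and 0.582 in input and 5.18, 1.79, 17.2, 3.45 and 14.8 in footprints, highest in sgWdr4-2 and Wdr4cKO and lowest in sgWdr4-1. By contrast Col6a1 to Col6a2 ran from 2.48 to 3.67 in input and from 2.40 to 3.36 in footprints. Col5a1 to Col5a2 ran from 0.0842 to 0.157 in input and from 0.0805 to 0.149 in footprints, but in opposite directions. In input it was 0.0875 in WT, 0.1325 in sgWdr4-1, 0.0975 in sgWdr4-2, 0.0842 in Wdr4ff and 0.157 in Wdr4cKO. In footprints it was 0.149, 0.0807, 0.0842, 0.1315 and 0.0805 in that order. Each targeted line was thus above its control in input and below it in footprints.

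**Figure D4:**
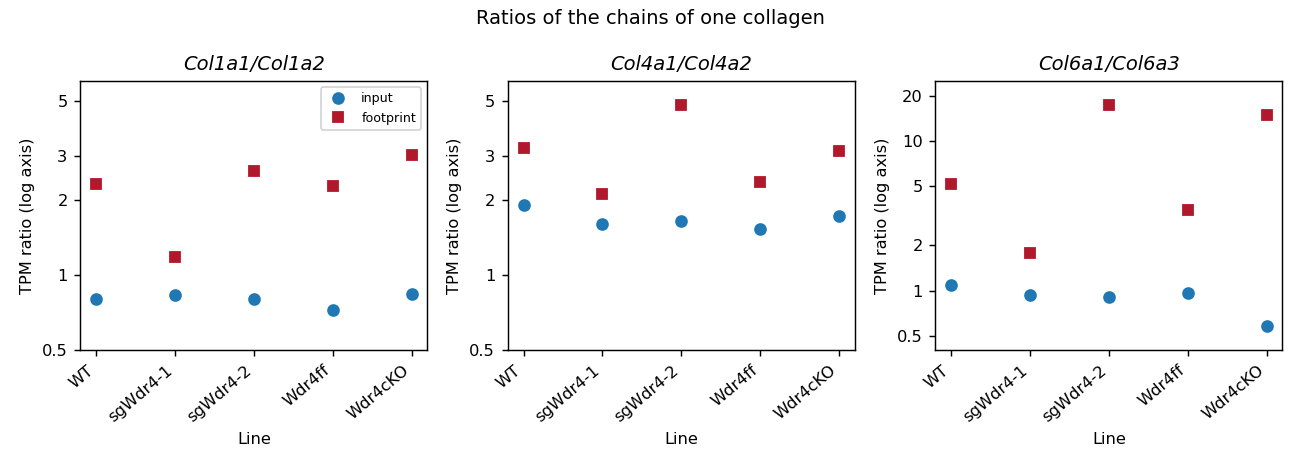
TPM ratios of 2 chains of one collagen in each line (log axes), input as circles and footprints as squares. Footprint ratios of Col6a1 to Col6a3 reach 17.2 in sgWdr4-2 and 14.8 in Wdr4cKO against 5.18 in WT and 3.45 in Wdr4ff, while input ratios stay between 0.582 and 1.10.

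Other genes of collagen biosynthesis were taken from fixed lists. Of 19 measured genes for folding, modification and secretion (of 24 listed, such as P4hb, Ppib, Crtap and the prolyl 3-hydroxylases), 3 were at least 2-fold lower in translation efficiency in sgWdr4-1, 0 in sgWdr4-2 and 4 in Wdr4cKO, and 3, 0 and 0 were higher. Over all genes 14.2%, 4.46% and 15.5% were lower and 13.9%, 3.58% and 3.96% higher, so these counts are near the background. Their median differences were -0.60, -0.33 and -0.49, against -0.02, -0.03 and -0.25 for all genes. Of 6 measured peptidase and turnover genes (of 18), 0, 0 and 1 were at least 2-fold lower, and of 3 collagen receptors (of 9) 1, 0 and 0, with none higher in either list. No gene of these lists was at least 2-fold apart in all 3 comparisons, and limma called none at an adjusted p under 0.05 with all lines. Without sgWdr4-1, 2, 1 and 0 genes of the respective lists were called lower, against 5.66% of all genes.

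Members just outside the 5 TPM filter were also measured at low level. Col5a3, the third type V chain, had input of 6.00 TPM in WT, 14.0 in sgWdr4-1, 6.51 in sgWdr4-2, 5.08 in Wdr4ff and 13.7 in Wdr4cKO, and footprints of 4.50, 3.73, 1.48, 4.84 and 1.53 TPM. Its translation efficiency differed by -1.31, -1.25 and -2.48. Col4a5 differed by -0.83, -0.96 and -1.98, and Col3a1 by -0.82, -0.37 and 0.09. At such levels the added pseudocount of 1 TPM makes up a large part of a value, and differences are understated.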

How the data were processed

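Input RNA was polyadenylated RNA and footprints were RNase I-protected fragments, per the labels' protocols. The authors deposited TPM in 2 separately normalised tables, for 6 iBMDM and 4 TAM libraries, with library totals of 999711 to 999889. The submitters' processing notes name fastp 0.18.0 and Bowtie2. Which quantifier, genome build and annotation were used is not given in the sources used here. Read depth cannot be had from TPM, so no counting error is attached to any value. Of 21956 rows, 22 repeats of a symbol were dropped, keeping the row with the highest mean.

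Values were taken as log2(TPM + 1), which understates changes of low genes, and differences only within a table. Some levels were set side by side across the separately normalised tables, and such rankings carry that limit. limma 3.58.1 in R 4.3.3 (empirical Bayes with expression trend, two-sided, Benjamini-Hochberg over 6927 genes, threshold 0.05) compared 3 targeted with 2 control lines, and the mean of 5 translation efficiencies with 0. This step was run on simulated data with equal noise in every gene and library. That check does not cover a library that stands apart, as the sgWdr4-1 footprint library did. Separate cultures or animals per library are not stated, so p-values measure only the spread between these libraries, which may be technical.

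All measured members were named, with every library's value for Col1a1, Col1a2, Col3a1, Col5a1, Serpinh1 and members at least 2-fold apart in all 3 comparisons; others given per library were chosen after their values were seen. The members and lists were chosen with earlier results of these data known. Promoter windows (RefSeq) ran from 250 bases before to 50 after a start; Col1a1, Col5a2, Col12a1, Lox, Loxl1, Loxl3, Bmp1 and Plod2 had no match. Protein sequence features, planned, are not analysed here. Alternatives were other pseudocounts and filters, rescaled libraries, exchanged TAM footprint libraries, left-out lines, the iBMDM table alone, no trend and no table term. Python 3.11.15 and pandas 2.3.3 were used.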

Additional observations from a re-analysis of the deposited data

Results flagged for a closer look

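In 2 results both guide lines moved one way and the TAM comparison the other, and neither difference was tested. Input RNA of Plod3 was lower than WT in both guide lines (-0.06 in sgWdr4-1 and -0.17 in sgWdr4-2, log2 scale) and higher in Wdr4cKO than in Wdr4ff (0.11). Translation efficiency of Col16a1 was higher than WT in both guide lines (0.53 and 0.43) and lower in Wdr4cKO than in Wdr4ff (-0.19). The guide comparisons share the WT libraries, and each value rests on 1 library per line and kind.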

How the results depend on the processing

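The 3 targeted-against-control counts of members at an adjusted p under 0.05 stayed at 0 under other pseudocounts, filters and scalings, with the TAM footprints exchanged, with the iBMDM table alone, without the trend and without the table term. Leaving out a guide line gave 0 to 21 called higher in input, 0 to 11 lower in footprints and 0 to 13 lower in translation efficiency. The cause was not tested. Leave-one-out counts of members with footprints above input ran from 5 to 8, the lowest without WT and without Wdr4ff. With no replicate block (5 input against 5 footprint libraries) 12 members were lower and 8 higher than input, against 9 and 8 in the fit within lines.

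Under a filter of 20 TPM, which kept 18 members, counts were 5 for footprints below input, 3 and 8 for at least 2-fold lower translation efficiency in sgWdr4-2 and Wdr4cKO, 3 and 3 for footprints, and 2 for input in Wdr4cKO. At a filter of 1 TPM, 1 member was 2-fold higher in input in sgWdr4-1. With a pseudocount of 5 the counts were 1 and 3 for footprints in sgWdr4-1 and Wdr4cKO and 2 for input in Wdr4cKO. Rescaling to the same median gave 4 for footprints below input, 9 for translation efficiency and 1 for input in Wdr4cKO. It moved the median translation efficiency difference of all genes from -0.11 to 0.03. With the TAM footprint libraries exchanged, translation efficiency counts were 2 in Wdr4cKO and 0 in all 3 comparisons. The footprint count was 0, and the member median of translation efficiency differences was 0.07 in Wdr4cKO. The exchange reverses the sign of every TAM footprint difference, so it gives the counts for swapped labels and is no check of their stability.

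Signs turned for few single values. For input, Col18a1 was -0.083 in the iBMDM table alone, Col5a2 -0.012 after rescaling, and Plod3 -0.030 to 0.024 with a guide line left out. For translation efficiency, Col12a1 was 0.14 with exchanged footprints and 0.15 in the iBMDM table alone, Col16a1 -0.36 with exchanged footprints, and Col6a1 -0.41 to 0.022 with a guide line left out. Footprints against input after rescaling were 0.27 for Bmp1, 0.19 for Col18a1, 0.22 for Col6a1, 0.28 for Col6a2, 0.67 for Col8a1, 0.34 for Loxl1 and 0.28 for Loxl4. With each line left out in turn they ran from -0.28 to 0.025 for Col8a1, from -0.090 to 0.31 for Loxl3 and from -0.017 to 0.19 for Plod2. The unknown depth limits what can be said of members under 5 TPM.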
